A study of Mus musculus with 96 samples.

Results

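The miR-34 family was described here through 5 mature miRNAs, mmu-miR-34a-5p, mmu-miR-34b-5p, mmu-miR-34b-3p, mmu-miR-34c-5p and mmu-miR-34c-3p (below without the species prefix), which were picked by name out of the 1978 mature mouse miRNAs counted in every library. Hearts of male C57Bl/6J mice aged 12 to 14 weeks were taken without operation (D0) or 1, 3, 7, 14 or 28 days (D1 to D28) after permanent ligation of the left anterior descending coronary artery, which causes an acute myocardial infarction (AMI). From each heart, cardiomyocytes (CMs) were enriched by low-speed centrifugation, hematopoietic cells (HCs) by anti-CD45 beads, endothelial cells (ECs) by anti-CD144 beads and fibroblasts (FBs) by attachment to plastic, and small RNA was sequenced in 4 libraries for each of the 24 combinations of cell type and day. RNA of 3 mice (2 where a sample was missing) was pooled for each library, so a library carries no value of a single animal. The pools of the 4 cell types at a day were drawn from the same animals, so comparisons between cell types are not between independent animals. D0 mice had no sham operation, so surgery and infarction cannot be told apart in a comparison with D0. Libraries were prepared in batches by cell type. RNA input and PCR cycles were also set by cell type, alike only for FBs and HCs. A difference in level between cell types therefore cannot be told apart from a difference between batches or, except between FBs and HCs, in input and cycles.

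The miR-34 family is known for being switched on by the tumour suppressor p53. Its guide strands, the 5p arms, share 1 seed, the stretch near the 5′ end by which a miRNA finds its target mRNAs, and they are known to repress cell cycle and survival genes such as Cdk6, Ccnd1, Met and Bcl2. miR-34a is made from a transcript of its own and has been linked to cardiac ageing and cardiomyocyte loss, while miR-34b and miR-34c are cut from a shared primary transcript and are known for high levels in multiciliated cells and testis. The 3p arms are the partner strands of the same hairpins and carry another seed.

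The mature sequences below show what the members share and where they part. Capitals mark the seed, bases 2 to 8 counted from the 5′ end, and sequences and genes are those of RefSeq and of the GENCODE annotation on GRCm38.p6, the build that the labels call mm10. RefSeq mature sequences were matched for 4 of the 5 members, and miR-34c-5p is named only.
miR-34a-5p: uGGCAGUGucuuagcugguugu
miR-34b-5p: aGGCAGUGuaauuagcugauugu
miR-34b-3p: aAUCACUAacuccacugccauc
miR-34c-3p: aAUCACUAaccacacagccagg
miR-449a-5p: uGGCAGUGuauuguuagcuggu
miR-34a-5p and miR-34b-5p held the same 7-base seed and the same base at 11 of 22 positions aligned from the 5′ end without gaps. miR-34b-5p is 1 base longer, and its 3′ part matches that of miR-34a-5p when shifted by 1 base. The ungapped count misses this and does not rank miR-34b-5p against miR-449a-5p. miR-34b-3p and miR-34c-3p shared their own seed and 17 of 22 positions. The GGCAGUG seed occurred in 4 of 1679 mature miRNAs of the reference table, and among them miR-449a-5p, which belongs to a family of multiciliated epithelium, matched miR-34a-5p at 15 of 22 positions. miR-449a-5p was scarce here, with a median CPM (counts per 1000000 mature counts of the library) of 2.73 in FBs, 1.65 in HCs, 0.350 in ECs and 0.241 in CMs, and miR-449b and miR-449c-5p had 2 counts and 1 count over all 96 libraries.

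In the genome the members sit at separate places. The Mir34a hairpin lies at chr4:150068454-150068555 on the plus strand, where its 3′ end overlaps an exon of Gm37795, a gene model still to be experimentally tested. Mir34b (chr9:51103562-51103645) and Mir34c (chr9:51103034-51103110) lie on the minus strand with 451 bases between them, inside an intron of Btg4, which is transcribed from the opposite strand.

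Levels were set by very unequal numbers of reads. FB libraries held 2217588 to 65588543 mature counts, CM libraries 3327351 to 24279105, EC libraries 525651 to 29037628 and HC libraries 18286 to 29504666. The lowest of all was HC D0 replicate 3, where 3 counts are worth 164 CPM and where miR-34a-5p had 4 counts and the other members 0. The marker miRNAs of each cell type (miR-1a-3p, miR-133a-3p, miR-208a-3p and miR-499-5p for CMs, miR-126a for ECs, miR-199a and miR-214-3p for FBs, miR-223-3p, miR-142a and miR-150-5p for HCs) had their highest summed level in the cell type they are named for. In such bulk samples, fewer cells of a type and less RNA per cell cannot be told apart.

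Across the 4 cell types the 2 loci had different profiles, with miR-34a-5p lowest in ECs and the miR-34b/34c cluster highest in FBs. The median of miR-34a-5p over 24 libraries was 165 CPM in CMs, 179 CPM in HCs, 43.3 CPM in FBs and 25.7 CPM in ECs. The median of miR-34c-5p was 1209 CPM in FBs, 122 CPM in HCs, 71.1 CPM in ECs and 22.3 CPM in CMs. By mean CPM, miR-34c-5p stood at rank 52 of 1978 miRNAs in FBs and miR-34a-5p at rank 100 in CMs.

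The other cluster members followed miR-34c-5p at lower levels. miR-34b-5p had medians of 402 CPM in FBs, 36.6 in HCs, 30.9 in ECs and 7.26 in CMs. The 3p arms were rare, with miR-34b-3p at 27.8 CPM and miR-34c-3p at 9.50 CPM in FBs and both below 1 CPM in CMs, where their medians were 0.358 and 0.0865 CPM. Of the cluster's counts, FB libraries held most: 623659 of the 693823 counts of miR-34c-5p came from FBs, while of the 122895 counts of miR-34a-5p only 20928 did.

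**Figure D1:**
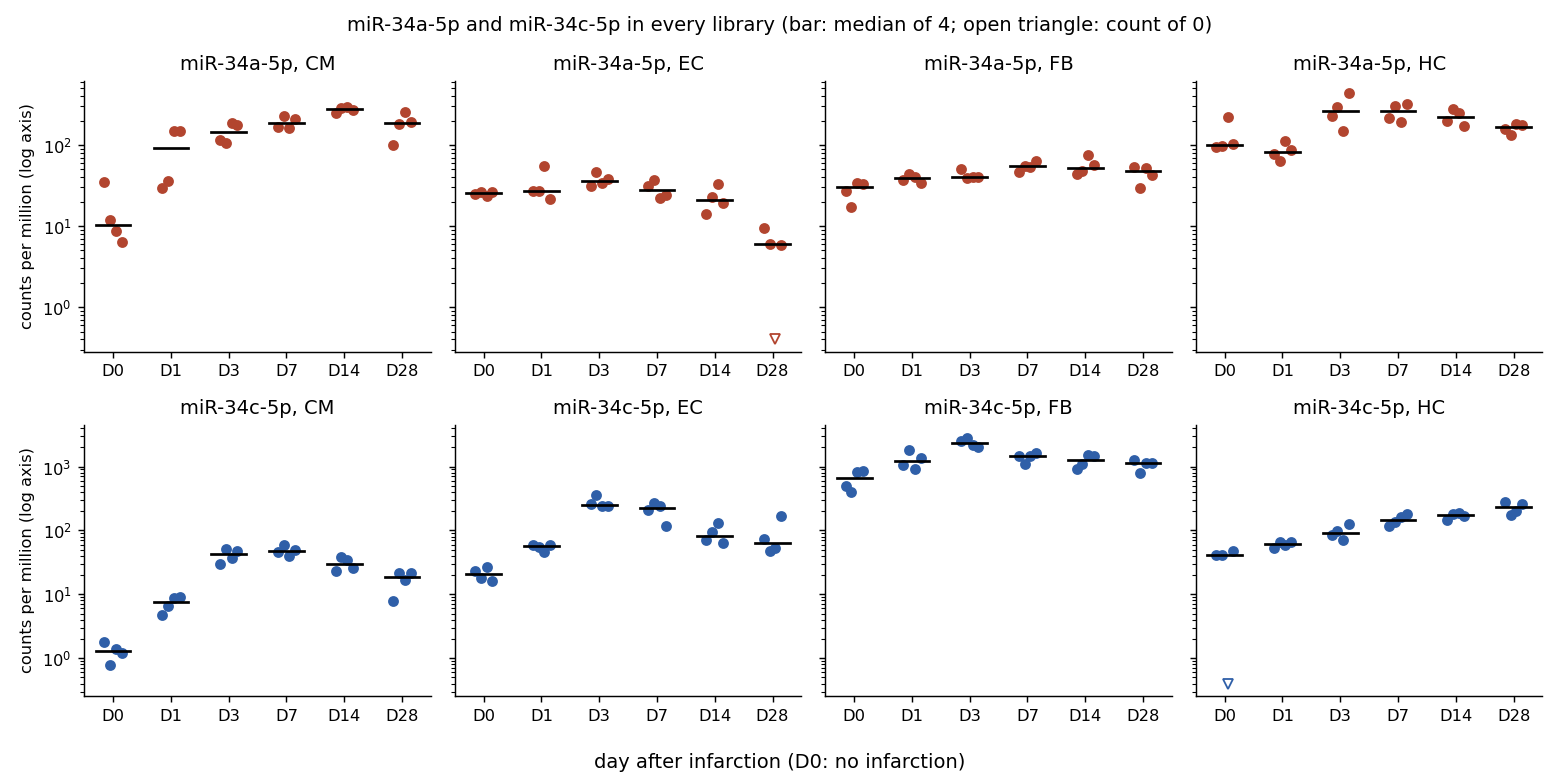
Level of miR-34a-5p (upper row) and miR-34c-5p (lower row) in CPM on a log axis, in each of the 4 libraries per day and cell type; bars stand at the median and open triangles mark a count of 0. miR-34c-5p in FBs lies between 402 and 2848 CPM on every day, above each library of the other cell types, while miR-34a-5p in ECs is lowest at D28.

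All 30 differences of a member between a pair of cell types, each a mean over the 6 days, passed the quasi-likelihood test of edgeR, adjusted by Benjamini-Hochberg over 712 miRNAs. Most other miRNAs passed it too, 69.4% for CMs against ECs, 71.8% for ECs against FBs, 75.7% for CMs against FBs, 77.7% for HCs against either CMs or ECs and 85.7% for FBs against HCs. After trimmed-mean (TMM) scaling, miR-34a-5p was 3.74 ± 0.14 (log2, SE) higher in CMs than in ECs, 2.93 higher in CMs than in FBs and 1.36 lower in FBs than in HCs. miR-34c-5p was 4.84 higher in FBs than in CMs, 3.62 higher in FBs than in ECs and 4.16 higher in FBs than in HCs on the same scale. The top of the order of miR-34a-5p and the middle of that of miR-34c-5p were not settled. TMM put miR-34a-5p 1.57 higher in CMs than in HCs, but with library size as the only scaling it was 0.60 lower. miR-34c-5p was 0.54 higher in ECs than in HCs under TMM and the value was -0.23 under library size.

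In CMs all 4 members that could be tested were higher at D7 than at D0, and by D28 the cluster had fallen back while miR-34a-5p had not. At D0 the libraries held 34.7, 11.8, 8.66 and 6.42 CPM of miR-34a-5p, and at D7 they held 166, 229, 163 and 209 CPM. For miR-34c-5p the values were 1.81, 0.779, 1.37 and 1.22 CPM at D0 and 46.1, 59.6, 39.9 and 49.8 CPM at D7. On this scale the lowest D7 library lay above the highest D0 library for both miRNAs. With library size as the only scaling, however, the median log2 change of all miRNAs tested in CMs was 2.67 at D7. By D28, miR-34c-5p had come down to 7.74, 21.2, 16.7 and 21.5 CPM, still above all of D0, while miR-34a-5p, at 101, 182, 253 and 192 CPM, overlapped its D7 range.

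The summed cardiomyocyte markers had a median of 662099 CPM in CMs at D0 and 429969 CPM at D7, and TMM scaling gave smaller changes there than CPM. miR-34a-5p was higher than at D0 on all 5 days, by 1.10 ± 0.37 (log2, SE; edgeR, adjusted p = 0.0323) at D1, 1.34 ± 0.37 (adjusted p = 0.00298) at D7 and 1.77 ± 0.38 (adjusted p = 0.000477) at D28. D0 replicate 1 stood highest of its group and shaped these sizes: without it the changes were 1.82 at D1, 2.00 at D7 and 2.41 at D28. The D1 call was lost without D0 replicate 2, 3 or 4 or D1 replicate 3 or 4, with an adjusted p of up to 0.107. miR-34c-5p was higher by 1.28 ± 0.28 (adjusted p = 0.00543) at D1, 3.09 ± 0.29 (adjusted p = 4.58e-08) at D3, 2.95 ± 0.29 (adjusted p = 9.97e-08) at D7 and 1.89 ± 0.28 (adjusted p = 2.52e-05) at D28. miR-34b-5p, its cluster partner, was 2.80 higher at D7 (adjusted p = 8.91e-07).

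miR-34c-3p was too low to be tested in CMs, so 4 members were. Of these, 2 passed as higher at D1, where 13.6% of 484 tested miRNAs did, 3 at D3 (31.8%), 4 at D7 (38.8%) and 3 each at D14 (38%) and D28 (29.5%). When libraries were scaled by their size alone, the median of all tested miRNAs in CMs shifted by 1.42 (D1) to 2.99 (D14), against 0.20 to 0.44 under TMM, and 92.6% of the calls at D7 were then higher, against 56.3%. Under library size miR-34a-5p rose by 3.64 at D7 and miR-34c-5p by 5.24, both above the shift of 2.67 in the median of all miRNAs on that day.

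Between later days in CMs the cluster moved past the threshold and miR-34a-5p did not, a difference that was not itself tested. From D1 to D7, where 46.5% of miRNAs passed, miR-34c-5p rose by 1.67 (adjusted p = 7.96e-05) and miR-34b-5p by 2.00 (adjusted p = 7.96e-05), and miR-34a-5p had a change of 0.23 (adjusted p = 0.614). From D7 to D28, where 20.5% passed, miR-34c-5p fell by 1.06 (adjusted p = 0.00488) and miR-34b-3p by 2.20 (adjusted p = 0.00821), while the value of miR-34a-5p was 0.43 (adjusted p = 0.432). Markers of hematopoietic cells (4 of 4 detected), a cell type with much miR-34a-5p, had a summed median of 16.8 CPM in CMs at D0 (14.6 to 75.8) and 219 CPM at D7 (161 to 298), against 12821 CPM in HCs, and their part in the rise of miR-34a-5p was not tested.

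ECs at D3 are the libraries through which the family came to attention, with miR-34c-5p as a leading rise against D0, so these values are given without a test. miR-34c-5p held 23.0, 17.9, 27.2 and 16.1 CPM at D0 and 262, 359.5, 239 and 239.9 CPM at D3, a fitted log2 change of 3.66. miR-34b-5p (3.34), miR-34b-3p (3.20) and miR-34c-3p (2.33) had large changes too, and miR-34a-5p had 0.55. In that contrast 15.4% of 421 miRNAs passed as higher.

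The cluster stayed up in ECs after D3. miR-34c-5p held 209, 269, 242 and 116 CPM at D7 and 72.3, 47.5, 53.5 and 168 CPM at D28, each above the highest D0 library. Against D0, whose libraries are the same ones as in the D3 contrast, it was higher by 2.92 ± 0.39 (edgeR, adjusted p = 1.37e-06) at D7, 1.88 ± 0.38 (adjusted p = 0.00113) at D14 and 2.20 ± 0.39 (adjusted p = 6.24e-05) at D28. The D28 change was 1.33 (adjusted p = 0.00135) without D28 replicate 4, the library at 168 CPM. miR-34b-5p was higher by 2.97 at D7 (adjusted p = 1.37e-06) and by 2.50 at D28 (adjusted p = 2.27e-05), and the D28 value was 1.68 without the same library. A comparison that uses neither D0 nor D3, D7 against D1, gave rises of 1.57 (adjusted p = 0.00289) for miR-34c-5p and 1.86 (adjusted p = 0.00107) for miR-34b-5p, where 17.6% of miRNAs passed.

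miR-34a-5p went the other way in ECs at the end of the series. Its libraries held 25.0, 26.5, 23.3 and 26.6 CPM at D0, 31.2, 37.4, 22.2 and 24.02 CPM at D7 and 9.51, 6.01, 0 and 5.89 CPM at D28, where no library reached the lowest of D0. It fell by 2.03 on the log2 scale against D0 (SE 0.39; adjusted p = 0.000165) and by 1.85 against D7 (adjusted p = 0.000938), where 37.8% of miRNAs passed. These D28 libraries were shallow, with 5, 11, 0 and 23 counts of miR-34a-5p. The 0 in replicate 3 allows up to 4.72 CPM, and the change against D0 was -1.74 without that library. The summed cardiomyocyte markers, of which 4 of 4 were detected, also moved in ECs, from 75957 to 134289 CPM at D0 to 21003 to 80702 CPM at D28, and their part in the fall of miR-34a-5p was not tested.

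Counting over the 5 members in ECs, 0 passed at D1, where edgeR's quasi-likelihood test called 0 of 421 miRNAs (0%), 17 had an unadjusted p under 0.05 and DESeq2 called 5. As higher, 4 passed at D7 (17.8% of all miRNAs), 2 at D14 (11.4%) and 3 at D28 (26.8%). miR-34a-5p was the 1 lower member at D28 (20.2% of all miRNAs). miR-34b-3p passed at D28 only narrowly (1.97, adjusted p = 0.0468), and this call was lost in 16 of the 24 fits that left out 1 library.

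FBs held the highest cluster levels before AMI, and these rose further to D3. The D0 libraries held 500.4, 402, 834 and 840.5 CPM of miR-34c-5p. At D3 they held 2540.1, 2848, 2173 and 2032 CPM, and by D28 they were down to 1262, 791, 1156 and 1151 CPM. D3 lay apart from D0, whereas at D28 the lowest library fell within the D0 range. By edgeR the change was 1.56 ± 0.24 (adjusted p = 1.08e-05) at D3, 0.90 (adjusted p = 0.00316) at D7 and 0.88 (adjusted p = 0.022) at D28. The 3p arms rose with it at D3, miR-34b-3p from 14.9, 15.8, 13.1 and 13.0 CPM to 43.2, 67.9, 42.0 and 36.5 CPM and miR-34c-3p from 4.38, 3.61, 4.97 and 4.22 CPM to 14.7, 19.1, 17.0 and 18.1 CPM.

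miR-34a-5p passed as higher from D7 on in FBs. Its libraries held 27.4, 17.1, 33.8 and 33.2 CPM at D0, 50.7, 38.9, 40.1 and 40.1 CPM at D3 and 46.4, 55.6, 53.8 and 63.9 CPM at D7. The tested changes were 0.25 at D3, which did not pass, 0.73 at D7 (edgeR, adjusted p = 0.00653) and 0.94 at D14 (adjusted p = 0.00206). At D28 it was 0.77 (adjusted p = 0.0239), a call lost without D0 replicate 1 or 2 or D28 replicate 1 or 3.

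As higher against D0, 3 of the 5 members passed in FBs at D1, where 5.86% of 563 miRNAs did, 4 at D3 (22.9%), 5 each at D7 (24.5%) and D14 (14.4%) and 3 at D28 (4.8%). D0 replicate 2 weighed on several of these. Without it, the D28 calls of miR-34a-5p (adjusted p = 0.0806), miR-34b-5p (0.125) and miR-34c-5p (0.0721), the D1 call of miR-34c-5p (0.0687) and the calls of miR-34b-5p at D7 (0.0802) and D14 (0.0575) were lost. The same 3 D28 calls were also lost without D0 replicate 1 or D28 replicate 1, the D1 call without D0 replicate 1 or D1 replicate 2 or 4, and the D7 and D14 calls of miR-34b-5p without D0 replicate 1, D7 replicate 1, 3 or 4 (D7) or D14 replicate 3 or 4 (D14). Under library size all 3 D28 calls were lost, with adjusted p = 0.0718 for miR-34a-5p, 0.0901 for miR-34b-5p and 0.0582 for miR-34c-5p. From D7 to D28, where 40.3% of miRNAs passed, miR-34c-3p fell by 0.64 (edgeR, adjusted p = 0.0213, lost without D7 replicate 4) and miR-34c-5p had a change of -0.02 (adjusted p = 0.97). From D1 to D7, where 46.4% passed, no member did, miR-34a-5p coming nearest with 0.46 (adjusted p = 0.0676).

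In HCs miR-34c-5p passed as higher from D3 on and was highest at D28. miR-34c-5p held 41.0, 40.5, 0 and 47.3 CPM at D0, 118, 134, 160.4 and 181 CPM at D7 and 280.3, 172, 203 and 261 CPM at D28. Replicate 3 of D0 is the library of 18286 counts, and its 0 allows up to 164 CPM. The other D0 libraries lay below every D7 and D28 library. The change by edgeR was 0.07 (adjusted p = 0.804) at D1 and 0.61 (adjusted p = 0.0154) at D3, the latter lost without D0 replicate 1. It grew to 1.40 (adjusted p = 7.6e-06) at D7, 1.67 (adjusted p = 3.37e-06) at D14 and 2.14 ± 0.22 (adjusted p = 5.22e-08) at D28, and without D0 replicate 3 the D28 change was 2.11. At D28 miR-34b-5p had a change of 2.41 (adjusted p = 1.09e-07), rank 3 of 608 tested miRNAs by log2 change, and miR-34c-5p had rank 5. From D7 to D28, where 30.8% of miRNAs passed, miR-34b-5p rose by 1.22 (adjusted p = 0.000236) and miR-34c-5p by 0.74 (adjusted p = 0.00566).

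miR-34a-5p in HCs passed as higher at D3, D7 and D14 and not at D28. It held 94.0, 97.6, 219 and 104 CPM at D0, 228, 294, 151 and 433 CPM at D3 and 158, 131, 182 and 176 CPM at D28, and the 219 CPM are 4 counts of the shallow library. The other 3 D0 libraries lay below every D3 and D28 library. By edgeR it was higher by 0.89 (adjusted p = 0.00423) at D3, 0.94 (adjusted p = 0.00335) at D7 and 0.80 (adjusted p = 0.0209) at D14, and the D28 value was 0.37 (adjusted p = 0.312). It was lower by 0.69 at D1 (adjusted p = 0.0226), a call that was lost under DESeq2 (-0.50, adjusted p = 0.133), under library size (-0.27, adjusted p = 0.427) and without any of 7 single libraries, HC D0 replicate 4, D1 replicates 1 and 2, D3 replicates 1, 2 and 4 and D7 replicate 3. The D14 call was lost without D0 replicate 1 or 2 or D14 replicate 2 or 3. As higher, 2 of the 5 members passed at D3 (30.9% of 608 miRNAs), 5 each at D7 (29.9%) and D14 (15.3%) and 4 at D28 (12.7%), and at D1 the 1 call was lower (28.9% of all miRNAs lower, 25.3% higher). From D1 to D7, where 30.8% passed, miR-34a-5p rose by 1.63 (adjusted p = 6.69e-06) and miR-34c-5p by 1.33 (adjusted p = 1.01e-05).

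**Figure D2:**
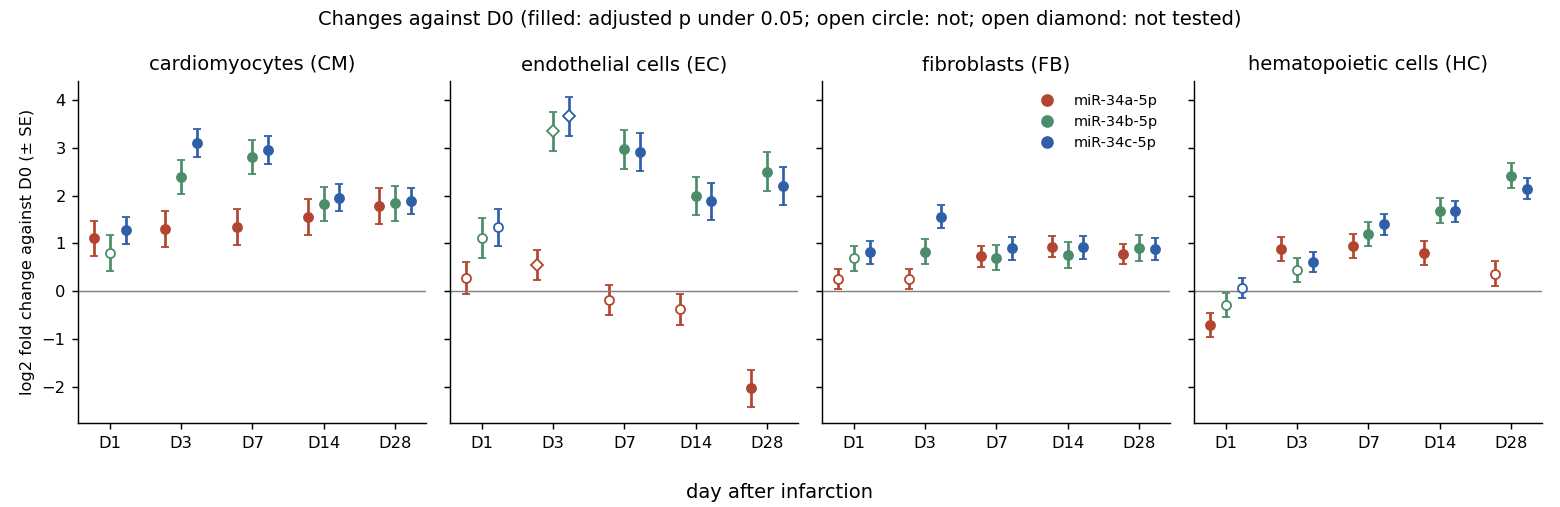
Fitted log2 change against D0 with its standard error for miR-34a-5p, miR-34b-5p and miR-34c-5p on each day in the 4 cell types. Filled points passed an adjusted p of 0.05, open circles did not, and open diamonds are ECs at D3, given without a test; in ECs miR-34c-5p is at 2.20 at D28 and miR-34a-5p at -2.03.

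Whether a change differed between cell types was tested directly, as the change against D0 in one cell type minus that in another, for D1, D7, D14 and D28. Of 120 such differences over the members, 34 passed, 11 for miR-34a-5p, 10 for miR-34c-5p, 9 for miR-34b-5p, 4 for miR-34b-3p and 0 for miR-34c-3p (edgeR, Benjamini-Hochberg over 712 miRNAs). At D1 8 of 30 passed, beside 26.8% of all miRNAs for CMs against HCs, 19.8% for FBs against HCs, 15.3% for ECs against HCs, 12.1% for CMs against ECs, 10.7% for CMs against FBs and 0.983% for ECs against FBs. At D7 12 of 30 passed, beside 44.2% (CMs against FBs), 41% (CMs against HCs), 40.4% (CMs against ECs), 16% (ECs against HCs), 13.6% (FBs against HCs) and 11.8% (ECs against FBs). At D14 4 of 30 passed, beside 43.4% (CMs against FBs), 41.7% (CMs against ECs), 36.4% (CMs against HCs), 8.01% (FBs against HCs), 5.62% (ECs against FBs) and 4.63% (ECs against HCs). At D28 10 of 30 passed, beside 44.4% (CMs against ECs), 32.2% (CMs against FBs), 28.7% (CMs against HCs), 25.1% (ECs against FBs), 24.6% (ECs against HCs) and 4.35% (FBs against HCs). For miR-34a-5p the D28 change was 4.14 higher in CMs than in ECs (adjusted p = 7.08e-11), and in ECs it was 2.90 lower than in FBs (adjusted p = 4.98e-06) and 2.61 lower than in HCs (adjusted p = 0.000126). The fall of miR-34a-5p in ECs at D28 thus differed from the change in each other cell type.

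For miR-34c-5p the D7 change in ECs exceeded that in FBs by 1.96 (adjusted p = 0.000328) and that in HCs by 1.51 (adjusted p = 0.00691). The latter was lost without the replicates numbered 1 (adjusted p = 0.0793) or 2 (adjusted p = 0.13). Every difference that takes in ECs uses the EC D0 libraries of the D3 contrast through which the family came to attention. Such differences are therefore not independent of that choice. The D7 change in CMs exceeded that in FBs by 2.37 (adjusted p = 5e-06) and that in HCs by 1.92 (adjusted p = 0.000331), while CMs and ECs had a difference of 0.41 (adjusted p = 0.5). At D28 the differences of miR-34c-5p from FBs were less firm. ECs exceeded FBs by 1.20 (adjusted p = 0.028), but without the replicates numbered 4 the difference was -0.20, and with day and replicate number as a block it was 0.96 (adjusted p = 0.0777).

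The ratio of miR-34c-5p to miR-34a-5p compares the 2 loci inside a library and so does not depend on how libraries are scaled. Over 24 libraries, the median log2 ratio was 4.69 in FBs, 2.28 in ECs, -0.73 in HCs and -2.77 in CMs. In ECs the ratio was -0.12, -0.56, 0.22 and -0.71 in the D0 libraries and 2.81, 2.93, 6.11 and 4.81 in the D28 libraries, so no D28 library came near the D0 range. The 6.11 is replicate 3, whose 0 counts of miR-34a-5p leave it set by the pseudocount, and without it the D28 mean went from 4.16 to 3.51. In HCs it went from -1.20, -1.27, -3.17 and -1.13 at D0 to 0.83, 0.39, 0.16 and 0.57 at D28, which turned the order of the loci. The -3.17 is the shallow library, with 0 counts of miR-34c-5p and 4 of miR-34a-5p, and without it the D0 mean went from -1.69 to -1.20. In FBs it was 4.19, 4.53, 4.62 and 4.66 at D0 and 5.65, 6.19, 5.76 and 5.66 at D3. In CMs the mean was -3.27 at D0, -1.97 at D7 and -3.46 at D28.

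With 4 libraries against 4, the smallest 2-sided p of the exact permutation test is 0.0286, and 9 of 19 comparisons with D0 reached it. These were CMs at D3 (mean change of the log2 ratio 1.47) and D7 (1.30), ECs at D7 (3.11), D14 (2.31) and D28 (4.45), FBs at D3 (1.31) and HCs at D1 (1.23), D14 (1.32) and D28 (2.18). Adjusted over the 19 comparisons, the same test gave 0.0603 for each, so none passed. The EC changes use the D0 libraries of the D3 contrast through which miR-34c-5p came to attention. Without EC D28 replicate 3 the change in ECs at D28 was 3.80. Without HC D0 replicate 3 the changes in HCs were 0.73 at D1, 0.83 at D14 and 1.68 at D28, and at D1 the exact permutation p was then 0.0571. Expressed as shares of the family's counts, miR-34a-5p made up 47.1% ± 8.11 (SD, n = 4) in ECs at D0, 9.46% ± 1.21 at D3 and 4.66% ± 4.10 at D28, and in HCs 72.1% ± 18.6 at D0 and 33.7% ± 4.34 at D28. The HC value at D0 takes in the library with 4 family counts, and without it was 62.8% ± 0.592 (SD, n = 3). In FBs it made up 2.60% and in CMs 82.8% on average over all days.

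**Figure D3:**
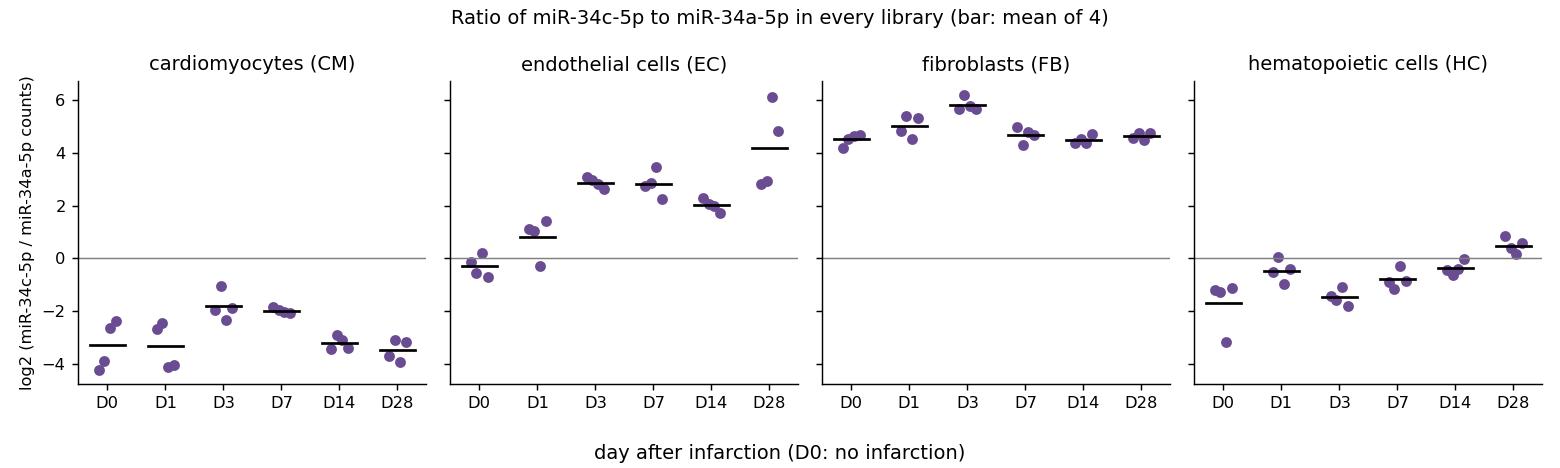
Log2 ratio of miR-34c-5p to miR-34a-5p counts in each library by day, with bars at the mean of 4 libraries. FBs lie above 0 on every day (D0 mean 4.50), CMs below 0 (D0 mean -3.27), ECs move from a mean of -0.29 at D0 to 4.16 at D28 and HCs from -1.69 to 0.49; the top point of ECs at D28 and the lowest of HCs at D0 are libraries with 0 counts of miR-34a-5p and miR-34c-5p, respectively.

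Within the cluster the proportions were alike in the 4 cell types. Per 100 counts of miR-34c-5p, summed over the libraries of a cell type, miR-34b-5p had 32.8 in HCs, 31.4 in FBs, 30.0 in ECs and 29.8 in CMs. Deep libraries weigh most in these sums. The median log2 ratio over libraries had another order, with -1.47 in ECs, -1.61 in CMs, -1.61 in FBs and -1.70 in HCs. Against D0 the log2 ratio of miR-34b-5p to miR-34c-5p changed at the smallest possible p in FBs at D3 (-0.75), CMs at D3 (-0.67) and FBs at D7 (-0.22), and none of 19 comparisons passed adjustment (lowest adjusted p in the exact permutation test 0.181). The 5p arm exceeded the 3p arm by a median log2 ratio of 3.67 to 3.77 for mir-34b and of 6.15 to 7.26 for mir-34c in the 4 cell types, and no change against D0 passed (lowest adjusted p in the exact permutation test 0.362 and 0.181). The 3p partner of miR-34a-5p, miR-34a-3p, had 88 counts over all libraries and was at 0 in 67 of 96.

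Reads aligned to the hairpins gave a second count of the same libraries, which shares their RNA and depth. In 46 of 52 comparisons with D0 the hairpin and the mature 5p arm changed with the same sign, and in all 40 where the mature change had passed. These signs are those of mean CPM, and no share over all hairpins was computed. Under library size 92.6% of the calls in CMs at D7 were higher, so equal signs in CMs say little. The mir-34b hairpin was left out in CMs, where it had at most 1 count per library at D0. The mir-34c hairpin had a mean of 133 CPM of hairpin counts in FBs at D0 and 272 CPM at D3, and of 4.14 and 35.1 CPM in HCs at D0 and D28. The fall of miR-34a in ECs was less clear-cut on hairpins, where mir-34a lay at 57.3 to 77.3 CPM at D0 and at 6.37 to 70.8 CPM at D28, so the groups overlapped.

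Fibroblast marker miRNAs rose outside FBs too, on some of the days on which the cluster did. The summed level of miR-199a-3p, miR-199a-5p and miR-214-3p, all 3 detected in every group, rose in CMs from a median of 38.1 CPM at D0 (36.5 to 114) to 1716 CPM at D7 (1029 to 2344), in ECs from 2385 CPM (2016 to 2845) to 9639 CPM (6872 to 11141) and in HCs from 4268 CPM (4229 to 4533) to 15756 CPM at D28 (11880 to 18739). In FBs it was 57378 CPM at D0 (40646 to 63149) and 78475 CPM at D3 (59771 to 88869). In HCs the marker median was lower at D1 (3030 CPM) and D3 (2910 CPM) than at D0, while miR-34c-5p passed as higher at D3. In ECs the marker median at D3 was 4971 CPM, below that at D7. There miR-34c-5p had a median of 251 CPM at D3 and 225 CPM at D7. In CMs the marker median was highest at D14 (2012 CPM) and that of miR-34c-5p at D7 (47.9 CPM). Per 100 marker counts, miR-34c-5p in CMs was 2.64 ± 0.940 (SD, n = 4) at D0, 3.55 at D1, 4.66 ± 1.18 at D3, 3.10 at D7 and 1.62 ± 0.289 at D14. At D3 the log2 change per marker count was 0.81 and the groups overlapped. In CMs the rise of miR-34c-5p at D7 was not larger than that of the markers beyond the spread of the libraries (log2 change per marker count 0.22, groups overlapping), and at D14 and D28 the change was -0.69 and -0.47.

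On this scale the libraries of FBs and HCs lay apart from D0 on all 5 days, and those of ECs at D1, D7 and D14. Per 100 marker counts miR-34c-5p was 0.868 ± 0.0645 in ECs at D0 and 2.20 ± 0.340 at D7, and the groups did not overlap (log2 change 1.32). At D28 in ECs the log2 change was 0.98 and the groups overlapped. In HCs the D0 value of 0.743 ± 0.503 compared with 3.26 ± 0.471 at D3 and 1.48 at D28, and in FBs themselves 1.15 ± 0.211 at D0 and 3.17 ± 0.430 at D3. The HC mean at D0 takes in the shallow library, with 0 counts of miR-34c-5p beside 78 marker counts, and the D0 median was 0.931. This scale was added after the data had been seen, and the part of fibroblast RNA in the levels of the cluster was not tested. miR-34a-5p did not follow these markers in ECs, where it was lowest at D28 and their median was 5237 CPM.

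**Figure D4:**
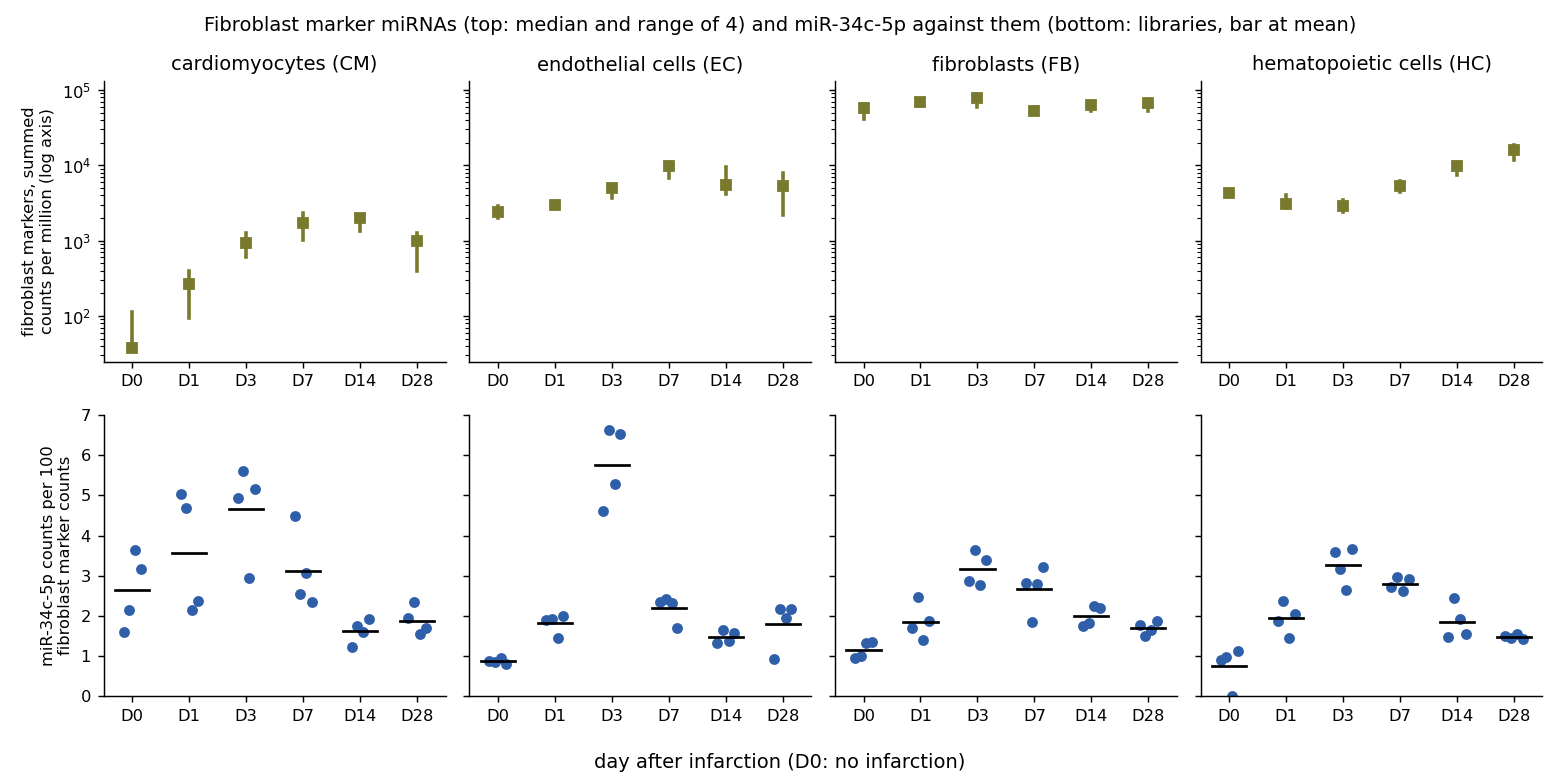
Upper row, summed level of the 3 fibroblast markers in CPM on a log axis, with the median (square) and range (line) of 4 libraries. Lower row, miR-34c-5p counts per 100 counts of those markers in each library, with bars at the mean; at D3 the mean is 3.17 in FBs and 5.77 in ECs, and in CMs it is 2.64 at D0 and 3.10 at D7.

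Other miRNAs tied to p53 were counted at D7, where over all miRNAs 38.8% were higher and 30.2% lower in CMs, 24.5% and 21.1% in FBs, 29.9% and 19.6% in HCs and 17.8% and 4.75% in ECs. Of 10 miRNAs known to be transcribed or processed under p53, CMs had 3 higher and 3 lower (median log2 change 0.02, all tested miRNAs 0.35), FBs 2 higher and 5 lower (-0.29 against -0.07), HCs 0 higher and 4 lower (-0.27 against 0.18) and ECs 0 higher and 2 lower (-0.66 against -0.01). In CMs miR-194-5p (1.80, edgeR adjusted p = 0.000993), miR-107-3p (1.56) and miR-16-5p (1.41), which restrains cell cycle genes, were higher. Lower there were miR-143-3p (-3.26, adjusted p = 1.78e-06), known from smooth muscle cells, and miR-192-5p (-2.53). In ECs the smooth muscle miRNA miR-145a-5p fell by 1.32 (adjusted p = 0.000713). Of 4 miRNAs known to target p53 mRNA, CMs had 1 higher and 3 lower (median -1.40), FBs 0 higher and 3 lower (-0.69), HCs 0 higher and 3 lower (-1.17) and ECs 0 higher and 1 lower (-0.42). With so few members, these counts are a description only. In FBs miR-125b-5p fell by 1.23 and miR-30d-5p by 0.56. In CMs miR-125b-5p rose by 1.12, while the other 3 on that list were lower.

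The miRNAs whose levels ran most like the members were read over the 24 group means, points that share libraries by cell type and the same scaling. For miR-34c-5p, among 707 candidates, these were miR-214-5p (Pearson r 0.96), miR-379-3p (0.95) and miR-434-3p (0.95), after its own cluster partner miR-34b-5p at 0.99. For miR-34a-5p they were miR-3068-5p (0.93), miR-3068-3p (0.90) and let-7i-3p (0.89). miR-34a-5p and miR-34c-5p had an r of -0.29 with each other. Over the 24 EC libraries alone, by Spearman's rho among 260 candidates, miR-21a-5p (0.93), miR-134-5p (0.85) and miR-455-5p (0.85) ran closest to miR-34c-5p, and miR-106b-5p (0.88), miR-30b-5p (0.86) and miR-374b-5p (0.84) to miR-34a-5p.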

How the data were processed

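Small RNA libraries (NEBNext kit, gel size selection) from 96 pools were sequenced by the authors, who trimmed adapters with Trim Galore, removed reads under 18 nt and ran nf-core smrnaseq with miRBase sequences. The deposited values are raw read counts per mature miRNA and per hairpin, 1 table per library. How reads that match several miRNAs were shared was not given in the sources used here. Groups and days were taken from the labels, and all 96 libraries were kept, although the study set aside 3 of them as outliers (1 of HCs and 1 of FBs, both from D0, and 1 of ECs from D28) without naming the replicate in its text. Counts were fitted within each cell type, and over all libraries for levels and differences of changes, with edgeR 4.0.16 (R 4.3.3; TMM, filterByExpr, quasi-likelihood test, Benjamini-Hochberg over all miRNAs tested, threshold 0.05). ECs at D3 against D0 were not tested for the members. DESeq2 1.42.0 served as an alternative. Ratios used a pseudocount of 0.5 and 2-sided exact permutation tests (numpy 2.4.6, checked against scipy 1.17.1). Floors are 3 counts and cover counting error only. The p-values measure the spread between pools. Where libraries of a member are said to lie apart between days, the share of all miRNAs that did so is not given. No pair among 144 pairs of libraries within a group differed by less than sampling noise. Scripts were tested on simulated data. Named are the members, the other arm, seed mates, the p53 lists (values at a mean of at least 100 CPM in that cell type and an adjusted p under the threshold) and the 3 miRNAs most like miR-34a-5p and miR-34c-5p. A mean of at least 10 CPM in ECs was asked for in the ranking over EC libraries only, not in that over group means. The members and lists were chosen with earlier results of these data known.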

Additional observations from a re-analysis of the deposited data

Results flagged for a closer look

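In 10 of 120 groups of 4 libraries 1 library stood far from the other 3, measured as its gap to the nearest of them over the whole range, and chance alone gives about 1 in 20 such groups. For miR-34a-5p these were EC D1 replicate 3 at 55.2 CPM (others 21.5 to 26.8), FB D3 replicate 1 at 50.7 CPM (others 38.9 to 40.1) and HC D0 replicate 3 at 219 CPM (4 counts, others 94.0 to 104). For the cluster they were FB D1 replicate 2 at 812 CPM of miR-34b-5p (others 301 to 321), HC D14 replicate 4 at 5.88 CPM of miR-34b-3p, HC D0 replicate 3 at 0 of miR-34c-5p (others 40.5 to 47.3), and, for the rare miR-34c-3p, CM D0 replicate 2 at 0.071, EC D0 replicate 4 at 0.95, EC D28 replicate 3 at 3.14 and HC D7 replicate 3 at 2.97 CPM. Among miRNAs outside the family, the seed mate miR-449a-5p stood at 30.8 CPM (369 counts) in HC D7 replicate 2, against 1.54 to 2.42 CPM in the other 3 libraries.

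The change against D0 differed between cell types in 13 comparisons of miR-34a-5p and miR-34c-5p at D7 and D28 (edgeR, difference of changes). For miR-34a-5p these were CMs minus ECs at D7 (1.88), and at D28 CMs minus ECs (4.14), CMs minus FBs (1.24), CMs minus HCs (1.53), ECs minus FBs (-2.90) and ECs minus HCs (-2.61). For miR-34c-5p they were at D7 CMs minus FBs (2.37), CMs minus HCs (1.92), ECs minus FBs (1.96) and ECs minus HCs (1.51), and at D28 CMs minus FBs (1.27), ECs minus FBs (1.20) and FBs minus HCs (-1.37). Of these, CMs minus FBs and CMs minus HCs of miR-34a-5p at D28, ECs minus HCs of miR-34c-5p at D7 and the 3 differences of miR-34c-5p at D28 lost their call without at least 1 replicate number. Those that take in ECs use the EC D0 libraries of the D3 contrast through which the family came to attention.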

How the results depend on the processing

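Of the members' tests against D0, 15 of 20 passed in CMs, 10 of 20 in ECs, 20 of 25 in FBs and 17 of 25 in HCs. Leaving out 1 library at a time gave 14 to 16, 8 to 11, 14 to 22 and 13 to 18. Leaving out each replicate number gave 28 to 30 of the 30 level differences and 16 to 31 of 120 differences of changes (34 with all libraries). For each of the 4 ratios, leaving out 1 library at a time gave 0. With 3 libraries against 4 the exact permutation p could still reach 0.0286. The ratio of miR-34c-5p to miR-34a-5p in HCs at D28 did so without D0 replicate 3 (adjusted p = 0.0679). Without replicate 4 of EC D28, FB D0 and HC D0, the libraries missing from the study's plot, the HC count was 11 and that of the differences of changes 22. The differences of changes numbered 53 under library size and 20 with no filter on low counts. The cause of these moves was not tested. Library size as the only scaling reversed 5 values, miR-34a-5p in ECs at D7 against D0 (0.19) and CMs minus HCs (-0.60), and ECs minus HCs for miR-34b-5p (-0.042), miR-34b-3p (-0.10) and miR-34c-5p (-0.23). Leaving out 1 replicate number, ECs minus FBs for miR-34c-5p at D28 ran from -0.20 (without number 4) to 1.62. On the scale of fibroblast markers, chosen after seeing the data, CM changes at D14 and D28 were -0.69 and -0.47 for miR-34c-5p and -0.83 and -0.50 for miR-34b-5p. The cell types of a day share animals, but no source says that the numbers match between them, and same-numbered libraries of different cell types deviated together, all 4 above 0.1, in 1 of 36 pairs. With the replicate block the counts were 15, 9, 18 and 17 in CMs, ECs, FBs and HCs. The block gave 30 for levels and 31 for differences of changes. For each ratio it gave 0, but a paired test of 4 libraries with 4 cannot pass the threshold, so that 0 decides nothing. With day and number as a block, added after seeing the data, the counts were 30 for levels and 33 for differences of changes. Depth limits HC D0 replicate 3 (18286 counts) and ECs at D28 (525651 to 3902765 counts).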
